A study of Mus musculus with 6 samples.

Results

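Autophagy is the route by which a cell encloses its own proteins, organelles or granules in a double membrane and delivers them to the lysosome. The transcripts described here encode its machinery, its cargo receptors and the transcription factors that are known to drive its genes. They were chosen by name, as the probes whose gene symbol in the platform annotation is one of 37 names. One of these, Vps34, is an older name of Pik3c3, which left 36 genes. Of the 19057 genes with a probe on the array, 35 were of this list, and Atg14 was the one not analysed here. A gene entered the comparison where a probe was detected on all 3 arrays of at least 1 group, at a detection p-value under 0.05. By that rule 29 of the 35 were tested, among 9200 genes in all.

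The samples were 21EM15 cells, an immortal epithelial line derived from the mouse lens. In 3 knockdown samples a lentivirus had delivered a hairpin RNA (shRNA) that targets Tdrd7, and in 3 control samples it had delivered GFP. All samples thus carried a lentiviral construct, the labels name no shRNA in the controls, and an effect of the constructs cannot be told apart from an effect of reduced Tdrd7. Whether replicates came from separate cultures is not stated, so p-values measure only how far these samples differ, possibly for technical reasons. In bulk RNA, fewer cells of a kind and less RNA per cell cannot be told apart.

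Tdrd7 encodes a Tudor domain protein of RNA granules. In mice its loss is known to cause cataract, and it has been linked to the maturation of autophagosomes in the lens. Autophagy starts with the ULK1 kinase complex and a lipid kinase complex built around Beclin 1. Lipid transfer proteins then extend the membrane, and a conjugation system attaches LC3 and GABARAP proteins to it, where cargo receptors bind them. In the mouse lens, deletion of Atg5 or of Pik3c3 is known to give cataract.

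Each array held 45281 probes, of which 37.2% to 38.8% were detected, and the number of arrays limits the precision. Arrays are numbered as in the deposited scanner table, with knockdown on arrays 4 to 6 and control on arrays 1 to 3. Signals are given as log2 units after normalization unless stated. Tdrd7 read 7.67, 7.46 and 8.42 log2 units on knockdown arrays 4, 5 and 6, against 9.38, 9.80 and 9.93 on control arrays 1, 2 and 3. Knockdown arrays were all below the control arrays, with a log2 fold change of -1.85 ± 0.28 (SE), though the limma adjusted p of 0.765 did not pass the threshold of 0.05. Of 10 lens epithelium markers, 8 were tested. Foxe3, which defines that epithelium, was not detected on any array, and Cdh1 was detected on at most 2 arrays. No marker of lens fibres, macrophages or endothelium was tested. The lens fibre genes Crygs and Cryaa were detected on 4 arrays and 1 array, and the macrophage gene Aif1 on at most 2. Fibroblast markers were tested for 6 of 8 genes, all 6 with a value above control, or 4 of 6 without knockdown array 4. Their summed linear signal ran from 7691 to 16496 on the knockdown arrays and from 5146 to 9230 on the control arrays.

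The comparison asks which autophagy transcripts differed between knockdown and control cells. None of the 29 passed an adjusted p of 0.05 in limma over all genes (adjusted p 0.998 to 0.999), and the share called over all 9200 genes was likewise 0%. At an unadjusted p under 0.05, 1 member was lower and 0 were higher, where 1.87% and 1.42% of all genes were. The knockdown arrays lay wholly below the control arrays for 2 members, Becn1 and Atg10, against 3.50% of all genes. They lay wholly above for 1 member, Atg2a, against 4.33% of all genes, which makes 3 members in either direction against 7.83%. The median log2 fold change of the 29 members was 0.087, beside 0.014 over all genes, and 19 members were above 0, beside 52.3% of all genes. Where detection on all 6 arrays was required, 18 of 28 members were above 0. For 27 of the 29 the 95% confidence interval stayed within a 2-fold difference either way, as it did for 83.8% of all genes. The exceptions were Becn1 and Gabarapl1. The intervals stayed within 1.5-fold for 10 members, beside 31.3% of all genes, so for most members a difference over 1.5-fold remained possible. These intervals are not adjusted for the number of genes and do not give the difference that the adjusted threshold could detect. Tdrd7 did not pass that threshold at a 3.61-fold difference.

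**Figure D1:**
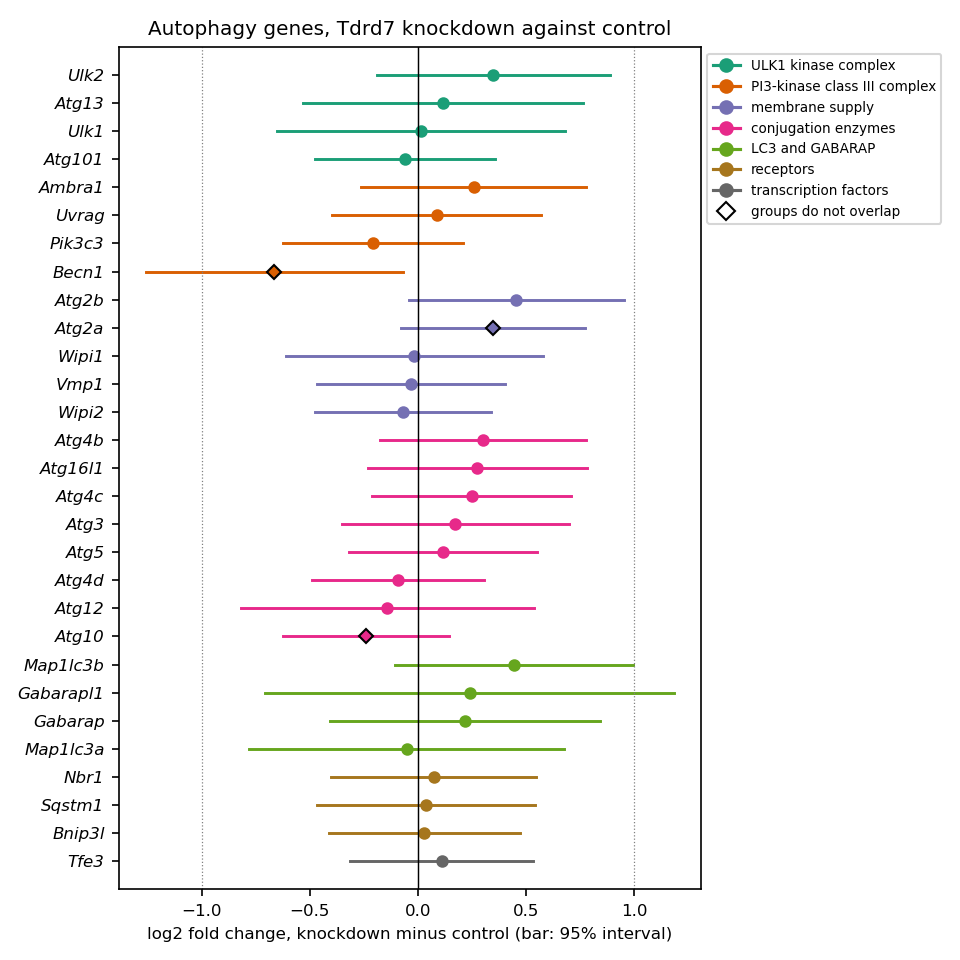
Log2 fold change of each tested autophagy gene (x axis, knockdown minus control, log2 units) with its 95% confidence interval from limma, genes on the y axis and coloured by role. Diamonds mark genes whose groups do not overlap, dotted lines mark a 2-fold difference, and the interval of Becn1 is the one that lies wholly on one side of 0.

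Of the ULK1 kinase complex, which starts autophagy under the control of nutrient signals, 4 of 5 genes were tested and 3 were above control, or 1 of 4 without knockdown array 4. Ulk2, a kinase related to Ulk1, read 8.33, 8.36 and 8.54 on knockdown arrays 4, 5 and 6, against 8.46, 7.63 and 8.10 on control arrays 1, 2 and 3. The groups overlapped through control array 1, and the log2 fold change of 0.35 ± 0.23 (SE) was 0.13 without control array 2. The kinase gene Ulk1 itself averaged 8.44 ± 0.58 on knockdown and 8.43 ± 0.14 on control arrays (SD, n = 3 each). Its log2 fold change was 0.013, with an interval from -0.65 to 0.68. The adaptor gene Atg13 was at 0.12 ± 0.28 and its partner Atg101 at -0.060 ± 0.18 log2 units (SE). Rb1cc1, the scaffold of the complex, has 3 probes and none was detected on any array.

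Of the lipid kinase complex, 4 genes were tested, 2 above and 2 below control, or 1 of 4 above without knockdown array 4. Becn1 encodes Beclin 1, the regulatory core of the complex, and had the largest fitted decrease of the 29 members. It read 7.18, 7.66 and 8.13 log2 units on knockdown arrays 4, 5 and 6, against 8.24, 8.19 and 8.52 on control arrays 1, 2 and 3. The knockdown values spread widely and the highest came close to the lowest control value. The log2 fold change was -0.66 ± 0.26 (SE), or 1.58-fold lower, with an interval from -1.26 to -0.067. The limma p was 0.033 without adjustment and 0.998 adjusted over all genes, and the exact permutation p, two-sided, was 0.1, the lowest that this design can reach. Its log2 fold change was -0.42 without knockdown array 4 and -0.57 without control array 3, where the unadjusted p no longer passed. A further Becn1 probe ran from 7.16 to 7.72 on the knockdown arrays and from 7.88 to 8.04 on the control arrays. That probe, too, kept the groups apart, at -0.44 ± 0.21 log2 units (SE, each probe fitted by itself), and the remaining probe was not detected on any array.

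Pik3c3 encodes the lipid kinase that works with Beclin 1. It read 8.64, 8.63 and 8.97 on knockdown arrays 4, 5 and 6, against 8.86, 8.90 and 9.10 on control arrays 1, 2 and 3. Arrays 4 and 5 were below all control arrays and array 6 was not, and the log2 fold change was -0.21 ± 0.18 (SE). Further Beclin 1 partners lay above control, Ambra1 at 0.26 ± 0.23 and Uvrag at 0.087 ± 0.21 log2 units (SE). Uvrag read 9.78, 9.17 and 9.23 on knockdown arrays 4, 5 and 6, against 9.38, 9.32 and 9.21 on control arrays 1, 2 and 3. For Uvrag, array 4 was the only knockdown array above all control arrays. The probes of Ambra1 differed in sign, from -0.0051 to 0.26. Pik3r4, the kinase's regulatory subunit, was not detected on any array.

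Among the genes that supply and shape the membrane, 5 of 5 were tested. Atg2a and Atg2b encode lipid transfer proteins that feed the growing membrane, and both were above control. Atg2b, with the largest fitted increase of the 29 members, read 9.53, 9.31 and 9.30 on knockdown arrays 4, 5 and 6, against 8.68, 9.32 and 8.79 on control arrays 1, 2 and 3. Control array 2 reached the level of the knockdown arrays, so the groups overlapped. Its log2 fold change was 0.46 ± 0.21 (SE), or 1.37-fold, with a limma p of 0.066 before and 0.998 after adjustment. A further Atg2b probe was at 0.46 ± 0.20, with no overlap of the groups. Atg2a read 8.81, 8.49 and 8.42 on knockdown arrays 4, 5 and 6, against 8.32, 8.29 and 8.07 on control arrays 1, 2 and 3. Every knockdown array was above every control array, with a log2 fold change of 0.35 ± 0.18 (SE) and an exact permutation p of 0.1. It was 0.23 without array 4. The other detected Atg2a probes were at 0.15 ± 0.22 and 0.17 ± 0.21, and on both the groups overlapped. Wipi1, Wipi2 and Vmp1, which act at the forming membrane, had log2 fold changes of -0.017, -0.068 and -0.033. The other detected Wipi1 probes were lower, at -0.26 and -0.27, and the probes of Wipi2 differed in sign, from -0.068 to 0.057.

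The conjugation enzymes attach Atg12 to Atg5 and a lipid to LC3. Of 10 genes, 8 were tested, 5 above and 3 below control. The 5 include Atg4c, which entered only through its detection on the knockdown arrays. Atg10, the enzyme that passes Atg12 to Atg5, read 8.99, 9.24 and 9.02 log2 units on knockdown arrays 4, 5 and 6, against 9.25, 9.36 and 9.37 on control arrays 1, 2 and 3. All knockdown values were lower, but array 5 nearly met control array 1. The log2 fold change was -0.24 ± 0.17 (SE), and on a further probe, at -0.44 ± 0.24, the groups overlapped. Atg12, the ubiquitin-like protein itself, read 10.71, 9.68 and 9.77 on knockdown arrays 4, 5 and 6, against 9.97, 10.44 and 10.17 on control arrays 1, 2 and 3. Array 4 was above and arrays 5 and 6 were below every control array, and the log2 fold change was -0.14 ± 0.29 (SE). Atg5 read 9.79, 9.45 and 9.30 on knockdown arrays 4, 5 and 6, against 9.49, 9.38 and 9.32 on control arrays 1, 2 and 3. The groups overlapped, with a log2 fold change of 0.12 ± 0.19 (SE) that was -0.021 without array 4. On a further Atg5 probe, at 0.21 ± 0.17, every knockdown array was above every control array.

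Atg16l1, which directs the Atg12 and Atg5 conjugate to the membrane, was at 0.28 ± 0.22 log2 units (SE), and Atg3, which transfers LC3 to its lipid, at 0.17 ± 0.23. The protease genes that cut LC3 were at 0.30 for Atg4b, 0.25 for Atg4c and -0.090 for Atg4d. Atg4c was detected on 2 of 3 control arrays, so part of its control level was not above background. Atg4a was not detected. Atg7, which activates both conjugation systems, was detected on 2 of 3 knockdown and 1 of 3 control arrays and was not tested.

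The LC3 and GABARAP proteins coat the autophagosome, and 4 of 5 genes were tested. Of these 3 were above control, or 1 of 4 without knockdown array 4. Map1lc3b read 10.56, 9.77 and 10.24 log2 units on knockdown arrays 4, 5 and 6, against 9.74, 9.54 and 9.95 on control arrays 1, 2 and 3. Arrays 4 and 6 were above all control arrays, while array 5 lay among them. The log2 fold change was 0.44 ± 0.24 (SE), with an interval from -0.11 to 1.00, and 0.26 without array 4. Gabarapl1 read 11.24, 9.54 and 9.96 on knockdown arrays 4, 5 and 6, against 9.80, 10.35 and 9.87 on control arrays 1, 2 and 3. Array 4 was the highest and array 5 the lowest of all, a 3.24-fold difference within the knockdown group. The log2 fold change was 0.24 ± 0.41 (SE), and without array 4 it was -0.26.

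Gabarap read 13.28, 12.35 and 12.43 on knockdown arrays 4, 5 and 6, against 12.66, 12.45 and 12.30 on control arrays 1, 2 and 3. Only array 4 stood above the control arrays, and the log2 fold change of 0.22 ± 0.27 (SE) was -0.077 without it. Map1lc3a read 10.29, 9.07 and 9.45 on knockdown arrays 4, 5 and 6, against 9.54, 9.48 and 9.94 on control arrays 1, 2 and 3. Array 4 was again the highest and array 5 the lowest, with a log2 fold change of -0.051 ± 0.32 (SE). Gabarapl2 has 3 probes, none of them detected. The summed linear signal of the 4 tested genes ran from 7371 to 15137 on the knockdown arrays and from 7957 to 8955 on the control arrays.

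**Figure D2:**
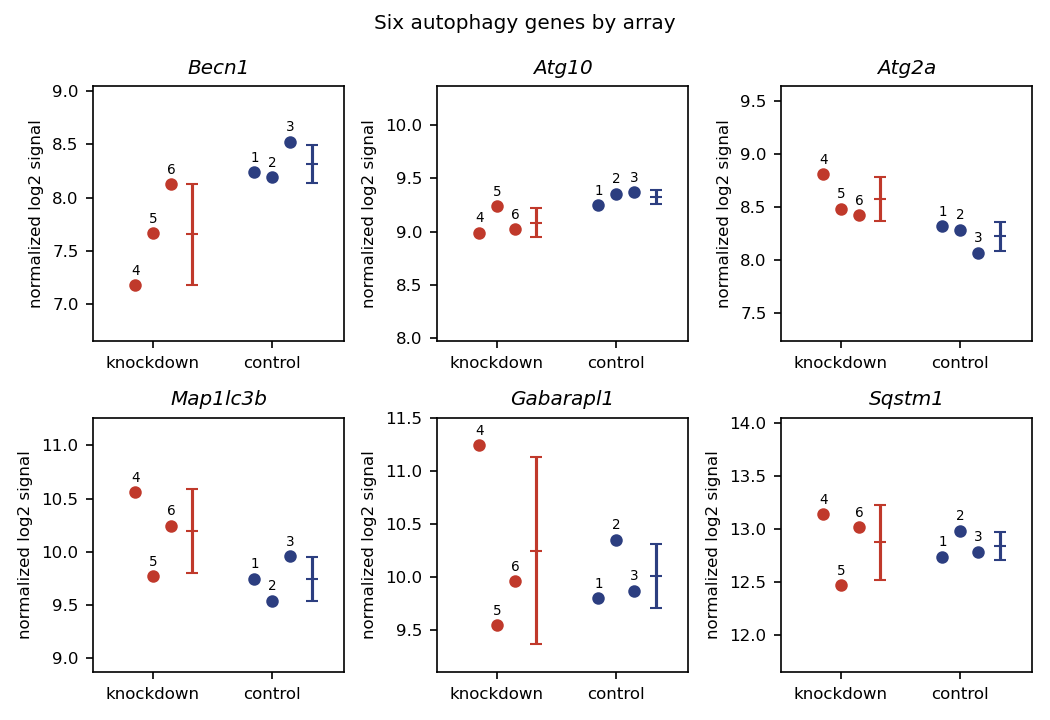
Normalized log2 signal (y axis) on each array for 6 autophagy genes, knockdown in red and control in blue, with the array number beside each point and bars for the mean ± SD (n = 3). On the probes plotted, Becn1, Atg10 and Atg2a keep the groups apart, while Gabarapl1 holds its highest (11.24) and lowest (9.54) value within the knockdown group.

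Cargo receptors tie waste to the LC3 coat, and all 3 were tested. Sqstm1, the gene of the receptor p62 for ubiquitin-tagged proteins, read 13.14, 12.47 and 13.01 log2 units on knockdown arrays 4, 5 and 6, against 12.74, 12.98 and 12.78 on control arrays 1, 2 and 3. Knockdown array 5 was the lowest of the 6 and the groups overlapped. The log2 fold change was 0.037 ± 0.22 (SE), with an interval from -0.47 to 0.54, and it was -0.094 without array 4. Nbr1, a related receptor, was at 0.073 ± 0.21 log2 units (SE), and Bnip3l, a receptor for mitochondria, at 0.031 ± 0.19. Of the transcription factors that drive autophagy and lysosome genes, Tfe3 was at 0.11 ± 0.18 log2 units (SE), and the probes of Tfeb were not detected on any array.

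The autophagy genes varied more among the knockdown arrays than the control arrays. The SD was larger in knockdown for 24 of 29 members, or 82.8%, beside 61.4% of all genes, with median SDs of 0.27 on knockdown and 0.18 on control arrays. Most of that spread lay between arrays 4 and 5. Array 4 held the highest value of 18 members, or 62.1%, beside 27.0% of all genes, and array 5 held the lowest of 12, or 41.4%, beside 15.7%. On array 4 the 29 members lay 0.27 log2 units above their own means over the 6 arrays on average, and on array 5 they lay below (mean deviation -0.16). The other arrays had mean deviations from -0.078 to 0.0097. Over all genes, array 4 correlated with the others at 0.957 on average, where the other arrays had 0.971 to 0.976. Without array 4, 12 of 30 tested members were above control, with a median log2 fold change of -0.066, beside 54.0% and 0.023 for all genes. Without array 5, 23 of 29 were above control, with a median of 0.21.

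Members differed in how far they followed this pattern. The gap between array 4 and array 5 was 1.69 log2 units for Gabarapl1, 1.23 for Map1lc3a, 1.16 for Ulk1, 1.10 for Atg13 and 1.03 for Atg12. It was over 1.5-fold for 11 members, or 37.9%, beside 14.4% of all genes. All 4 LC3 and GABARAP genes were highest on array 4, with a mean deviation of 0.77 there and -0.39 on array 5. Becn1 went the other way: it was lowest of all on array 4, at a deviation of -0.81. Atg3, Atg10, Wipi2 and Ulk2 were the other members that lay lower on array 4 than on array 5. Among the 20 further detected probes of 13 members, 9 were highest on array 4. Of these 20, 4 were lowest on array 5, against 4 on control array 1 and 7 on control array 2. Their mean deviation was still lowest on array 5, at -0.16, followed by -0.083 on control array 1, and 0 were highest on array 5.

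**Figure D3:**
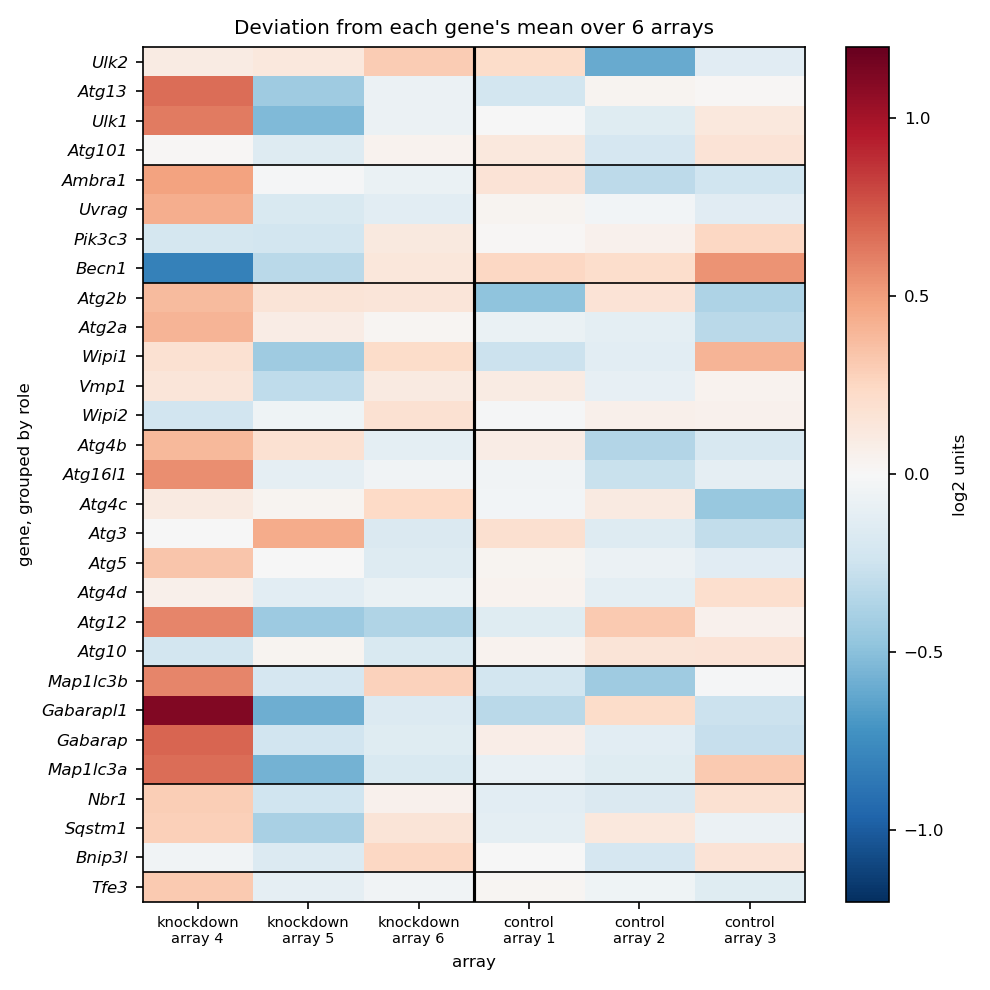
Deviation of each tested autophagy gene from its own mean over the 6 arrays (colour, log2 units), genes in rows grouped by role and arrays in columns, knockdown left of the line. Array 4 is red for most genes and blue for Becn1 (-0.81), and array 5 is mostly blue.

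Some other lists moved on these arrays too, and their part in the autophagy values was not tested. Of 25 lysosome genes tested, 22 were highest on array 4 and 14 were lowest on array 5, with mean deviations of 0.35 and -0.31. Fibroblast markers had mean deviations of 1.12 on array 4 and -0.26 on array 5, and of -0.90 on control array 2. In the opposite direction, 16 DNA replication genes, a list added after their values were known, were at -1.34 on array 4 and 0.86 on array 5. Reference genes were at -0.36 on array 4 and 0.32 on array 5. The 15 genes for the fusion of autophagosomes with lysosomes were at -0.0017 on array 4, where 1 was highest, and at -0.15 on array 5.

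**Figure D4:**
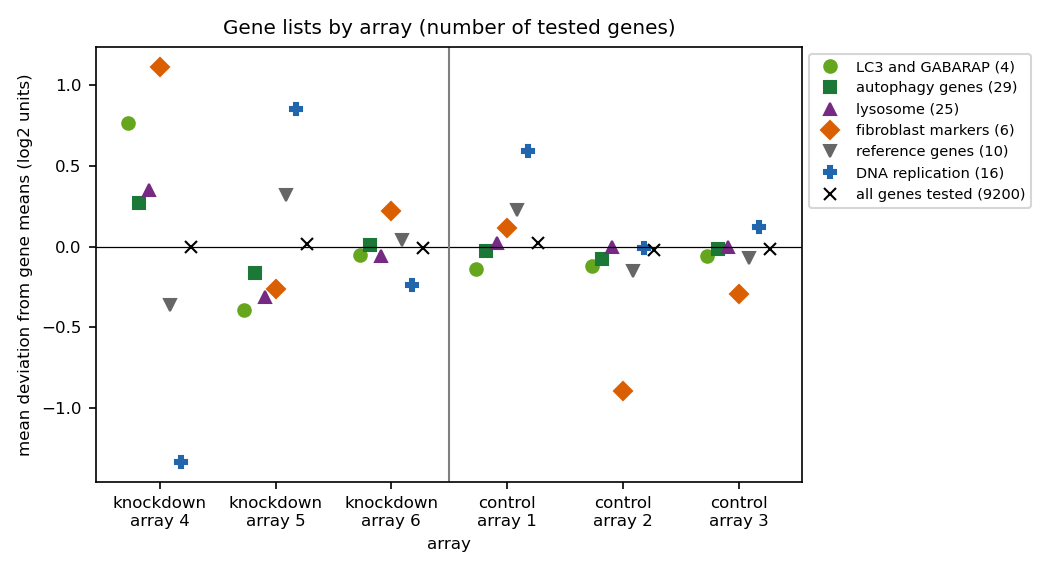
Mean deviation from the gene means (y axis, log2 units) of gene lists on each array (x axis), with the number of tested genes in the legend. The LC3 and GABARAP genes, all autophagy genes and lysosome genes lie above 0 on knockdown array 4 and below 0 on array 5, and DNA replication genes lie the other way (-1.34 and 0.86).

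Promoter sequences from RefSeq (build GRCm38.p6) were matched for 29 of the 36 genes, which are not the 29 tested ones. Becn1, Map1lc3a, Atg12, Atg16l1, Bnip3l, Pik3c3 and Rb1cc1 were not searched. The 250 bases before each gene's start were searched on both strands. The E-box CACGTG, the core of the element that TFEB and TFE3 bind, was in the windows of 3 members, Atg3, Atg5 and Atg7, beside 6.86% of all genes with a promoter there. Its extended form TCACGTGA was in that of 1 member, Atg3, beside 0.907% of all genes. The FOXO letters GTAAACA and the ATF4 letters TGATGCAA were in none of the windows searched, beside 3.54% and 0.918% of all genes. A match is a description of letters in this window, and other spellings of these sites were not searched. The windows of the gene with the widest array gap, of the LC3 gene with the largest fitted difference and of the gene with the extended E-box are given 5′ to 3′, with each E-box in capitals. They lie on the plus strand at chr6:129532942-129533191 for Gabarapl1, chr8:121590188-121590437 for Map1lc3b and chr16:45158579-45158828 for Atg3, and the Atg3 sites begin 94 and 71 bases before the start.
Gabarapl1: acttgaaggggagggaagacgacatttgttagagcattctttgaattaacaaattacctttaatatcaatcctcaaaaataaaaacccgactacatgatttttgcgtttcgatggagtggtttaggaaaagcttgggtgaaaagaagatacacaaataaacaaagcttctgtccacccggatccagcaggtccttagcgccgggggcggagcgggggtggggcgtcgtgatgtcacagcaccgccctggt
Map1lc3b: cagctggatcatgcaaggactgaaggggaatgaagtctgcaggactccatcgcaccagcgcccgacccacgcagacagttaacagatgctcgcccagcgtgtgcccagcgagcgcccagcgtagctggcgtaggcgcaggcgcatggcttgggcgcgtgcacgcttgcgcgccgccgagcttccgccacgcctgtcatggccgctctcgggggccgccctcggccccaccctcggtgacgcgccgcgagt
Atg3: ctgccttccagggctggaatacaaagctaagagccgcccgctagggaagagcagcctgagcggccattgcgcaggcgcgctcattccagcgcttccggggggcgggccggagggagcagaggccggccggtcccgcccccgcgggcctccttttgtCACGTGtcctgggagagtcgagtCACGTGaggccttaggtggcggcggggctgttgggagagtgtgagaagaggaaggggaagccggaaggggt

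Neighbouring steps of the pathway were described by lists, none of whose members passed the limma test over all genes. Of 14 other core genes, 12 were tested and 10 were above control, with a median log2 fold change of 0.068. Without knockdown array 4, 2 of 12 were above control, with a median of -0.089. Their mean deviation was 0.37 on array 4, and -0.14 and -0.13 on knockdown arrays 5 and 6. Among them was Bcl2, whose product binds and restrains Beclin 1. It read 7.36, 7.64 and 7.72 on knockdown arrays 4, 5 and 6, against 7.34, 6.73 and 6.56 on control arrays 1, 2 and 3. All knockdown arrays were above control, array 4 by little, with a log2 fold change of 0.70 ± 0.24 (SE) and a limma adjusted p of 0.998. The log2 fold change of Bcl2 was 0.46 with its probes averaged and 0.42 on the authors' values. Its relative Bcl2l1 was at -0.47 ± 0.33.

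For nutrient sensing, 28 of 31 genes were tested, 14 above and 14 below control. Tsc1, a brake on the growth kinase mTOR, read 6.33, 6.14 and 6.34 on knockdown arrays 4, 5 and 6, against 5.63, 5.92 and 5.56 on control arrays 1, 2 and 3. The groups did not overlap, with a log2 fold change of 0.57 ± 0.18 (SE). It was 0.19 with its probes averaged and 0.24 on the authors' values. Rragb, a GTPase that recruits mTOR to the lysosome, read 5.20, 5.91 and 5.64 on knockdown arrays 4, 5 and 6, against 6.07, 6.16 and 6.81 on control arrays 1, 2 and 3. It was lower on all knockdown arrays, at -0.76 ± 0.27 (SE) or -0.36 on the authors' values, and was detected on 2 of the 3.

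Of 15 genes for the fusion of autophagosomes with lysosomes, 6 were above and 9 below control, from Tecpr1 at 0.17 ± 0.18 to Vps41 at -0.46 ± 0.25 log2 units (SE). Other selective receptors had 6 of 14 above control, from Tax1bp1 at 0.31 ± 0.22 to Rtn3, a receptor of the endoplasmic reticulum, at -0.18 ± 0.16. Lysosome genes had 17 of 25 above control, with a median log2 fold change of 0.056 that was -0.11 without array 4, when 8 of 25 were above. They ran from the chloride transporter gene Clcn7 at 0.35 ± 0.23 to the protease gene Ctsl at -1.35 ± 0.36 (SE). FOXO and ATF4 stress genes had 6 of 9 above control, from Trib3 at 0.66 ± 0.53 to Asns at -0.13 ± 0.37. NRF2 and its targets had 5 of 9 above, from Txnrd1 at 0.47 ± 0.33 to Nqo1 at -0.23 ± 0.35. Hypoxia genes had 6 of 10 above, from Vegfa at 0.63 ± 0.29 to Adm at -1.54 ± 0.22. Reference genes had 4 of 10 above, from Tbp at 0.28 ± 0.22 to Ppia at -0.19 ± 0.21. Lens epithelium markers had 2 of 8 above, from Pax6 at 1.00 ± 0.33 to Prox1 at -0.65 ± 0.53, and fibroblast markers ran from Col3a1 at 1.61 ± 0.61 to Pdgfrb at 0.085 ± 0.30.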

How the data were processed

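Per the labels' protocols, RNA was purified with an RNeasy kit, treated with DNase and labelled with biotin as cRNA. For each probe and array, the scanner table, as deposited, gives a linear intensity and a p-value of detection. The authors also deposited processed intensity values whose processing is not given in the sources used here. They were a straight line of 1 scanner column each and served as an alternative. The names of the scanner columns give a group and a running number. Replicate numbers were taken from names only, not from the match of values, and so were used only with the processed values.

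The intensities were corrected, quantile normalized and log2 transformed by the neqc function (limma 3.58.1, R 4.3.3; offset 16, background from the detection p-values). The added offset shrinks the fold changes of dim genes. The log2 fold changes of Tsc1 (0.57) and Rragb (-0.76) were smaller still without background correction, at 0.26 and -0.36. Of 45281 probes 16349 entered. Each gene was represented by its brightest entered probe, named by the platform annotation. Groups were compared with lmFit and eBayes, with Benjamini-Hochberg adjustment over 9200 genes and a threshold of 0.05. The fit was also run on simulated data, with independent noise for each gene and the same SD in both groups. Those data held no shift shared by many genes on an array, so they do not show how the fit handles one. Exact permutation tests were two-sided. Named with full values were the 4 members with the largest fitted change each way, those whose groups did not overlap, the LC3 and GABARAP genes, Sqstm1, Becn1 and Atg5, and of each other list the member with the largest change each way. Members and lists were chosen with earlier results of these data known. The DNA replication list, and the fits of the gene lists without 1 array, were added after seeing the data. Alternatives changed the background correction, scaling, filter, probe rule, variance estimate or weights, or omitted an array. Plots used Python 3.11.15 and matplotlib 3.10.9.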

Additional observations from a re-analysis of the deposited data

How the results depend on the processing

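Under all 19 alternatives 0 autophagy members passed the adjusted threshold, with lowest adjusted p-values from limma between 0.51 (array weights) and 1.00. The count of changed genes was 0 in each but 1, where every probe was fitted by itself and a single unnamed probe passed. Tdrd7 stayed lower, from -2.15 to -1.57. The members' median log2 fold change ran from 0.030 to 0.15, and from -0.066 to 0.21 when each array was left out in turn. Becn1 stayed lower, from -0.90 to -0.42, as did Atg10, from -0.34 to -0.18, and Atg2a stayed higher, from 0.22 to 0.43. Array 4 held the highest value of 17 to 20 members under the alternatives run for it at the gene level, a count chosen after seeing the data. Leaving out each array gave ranges that crossed 0 for Atg12 (-0.47 to 0.044), Map1lc3a (-0.40 to 0.22), Gabarap (-0.077 to 0.38), Gabarapl1 (-0.26 to 0.59), Sqstm1 (-0.094 to 0.23), Atg5 (-0.021 to 0.22), Asns (-0.43 to 0.18), Nqo1 (-0.64 to 0.023) and Pdgfrb (-0.17 to 0.36). With all arrays, Tsc1 ran from 0.19 (probes averaged) to 0.66 and Rragb from -0.91 to -0.36 (processed values of the authors). The sign also turned for Map1lc3a without normalization between arrays (0.012), for Asns with array weights (0.047) and for Nqo1 with its probes averaged (0.0082). None of these had a call, and the cause was not tested. Members with an unadjusted p under 0.05 numbered 1 and ran from 0 (without normalization between arrays, and without control array 3) to 3 (no filter, and array weights). The mean deviation of the tested members on array 4 was 0.22 to 0.31, and 0.53 without normalization between arrays. A replicate block was fitted on the processed values of the authors, whose columns are named by replicate, and not on the scanner values. With it 0 members passed, 2 had an unadjusted p under 0.05 against 1 without it, and Becn1 was at -0.52 with and without it. Samples sharing a number had deviations correlated at -0.10, 0.13 and 0.59. They were not treated as pairs in the main fit, since nothing states that a number marks a shared culture or day. A slide block could not be fitted, since the files used here give no slide.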
